A study of Mus musculus with 8 samples.

Results

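Sox9 is the subject here: 1 gene of the 32285 in the RNA matrix, followed across 7184 nuclei, together with the 143 ATAC peaks (of 116068) in the stretch of mouse chromosome 11 that reaches more than 1 Mb to either side of it. The gene was taken by its name and the peaks by position. Nuclei were sorted into 5 bins by their own Sox9 count: 0, 1 to 2, 3 to 4, 5 to 9 and 10 or more UMIs (unique molecular identifiers, each standing for a captured RNA molecule).

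SOX9 is a transcription factor that bends DNA through an HMG box and binds short motifs with AACAAT at their core. In cartilage it works with SOX5 and SOX6 and switches on the collagen genes of the matrix. In the developing mouse lung it marks the distal tips of the branching airways, and its level drops as alveolar type I (ATI) and type II (ATII) cells mature. Mouse Sox9 lies in a gene desert, and many of its known enhancers are far from the gene.

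The nuclei came from alveolarspheres, hollow cultures of mouse ATII cells that were grown with neither serum nor feeder cells. ATII cells make surfactant, and ATI cells form the thin gas exchange surface. The labels name 8 samples in 4 groups of 2: Sox9-Cre RNA, Sox9-Cre ATAC, Cre RNA and Cre ATAC. On day 9 the Sox9-Cre cultures received an adeno-associated virus of serotype 9 (AAV9) carrying both Sox9 and Cre recombinase, and the Cre cultures received AAV9 with Cre alone, so both groups carried the virus and Cre. All cultures were then kept for 4 days in ATII differentiation medium, which turns them to the ATI fate, and nuclei were taken from cells sorted for tdTomato. Young and old mice both gave cells, and the labels do not say which nuclei came from which. Cre and tdTomato were not among the genes analysed. The nuclei carry 4 barcode prefixes, called libraries A, B, C and D, that no label ties to a sample. No Sox9-Cre against Cre comparison was therefore made: the pooled matrix is 1 sample without replicates, each library is described by itself, and no p-value is given. Sox9 UMIs from the chromosomal gene and from the viral sequence cannot be told apart.

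Library A held 1260 nuclei, B 760, C 3236 and D 1928, with median RNA depths from 9802 to 11728 UMIs per nucleus and median ATAC depths from 3776 to 13991.5 counts in peaks. In nuclei with 0 Sox9 UMIs the 20 ATII markers summed to 538, 539, 559.8 and 575 UMIs per 10000 in libraries A, B, C and D. The same sum was at most 0.508 for 10 immune, 0.0788 for 10 endothelial and 0.0607 for 10 mesenchymal markers in any of them. ATI and transitional genes were present beside the ATII genes: in the same nuclei the 20 ATI markers summed to between 103 and 124, and 17.1 to 22.9% of the nuclei of a library were ATII-like, 30.7 to 44.6% ATI-like and 23.5 to 28.8% transitional-like. The 12 airway secretory markers set the libraries apart, with 1.62, 1.48, 23.4 and 45.0 in A, B, C and D. Libraries shared 20 barcodes. All intervals are exact 95% intervals for counting error, and they leave out any spread among cultures or mice.

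Sox9 was close to undetected in libraries A and B and was found in similar shares of nuclei in C and D. Library A had 20 Sox9 UMIs in 12 nuclei, 0.952% of its nuclei (0.493 to 1.66), and B had 14 in 10 nuclei, 1.32% (0.633 to 2.41). Library C had 4293 UMIs in 1064 nuclei, 32.9% (31.3 to 34.5), and D had 2354 in 574 nuclei, 29.8% (27.7 to 31.9). Per 10000 UMIs the level was 0.0148 for A (0.00903 to 0.0228), 0.0144 for B (0.00786 to 0.0241), 1.08 for C (1.05 to 1.11) and 0.941 for D (0.903 to 0.980). The intervals of A and B overlapped, while those of C and D for the level did not meet. Without its single highest nucleus C stood at 0.967, which lies within the interval of D. Thinned to 5000 UMIs per nucleus, which leaves out 196, 76, 300 and 150 shallower nuclei of A, B, C and D, the shares were 0.505%, 0.556%, 21.7% and 19.3%.

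The counts were very unequal within C and D. A Sox9-positive nucleus held a median of 2 UMIs in both libraries and a mean of 4.03 in C and 4.10 in D. The variance over the mean, taken over all nuclei, was 60.6 in C and 17.4 in D. Library C owed much of this to a single nucleus with 449 Sox9 UMIs among 40135 UMIs, 10.5% of all Sox9 UMIs of the library. The next nuclei held 103, 79 and 69 UMIs, and without the highest nucleus the variance over the mean of C was 15.5. The 4 highest nuclei of D held 82, 70, 69 and 49. In C 89 nuclei (2.75%) and in D 53 nuclei (2.75%) held 50% of the Sox9 UMIs. In A the highest nucleus held 6 UMIs and the next 2, and in B no nucleus held more than 2.

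**Figure D1:**
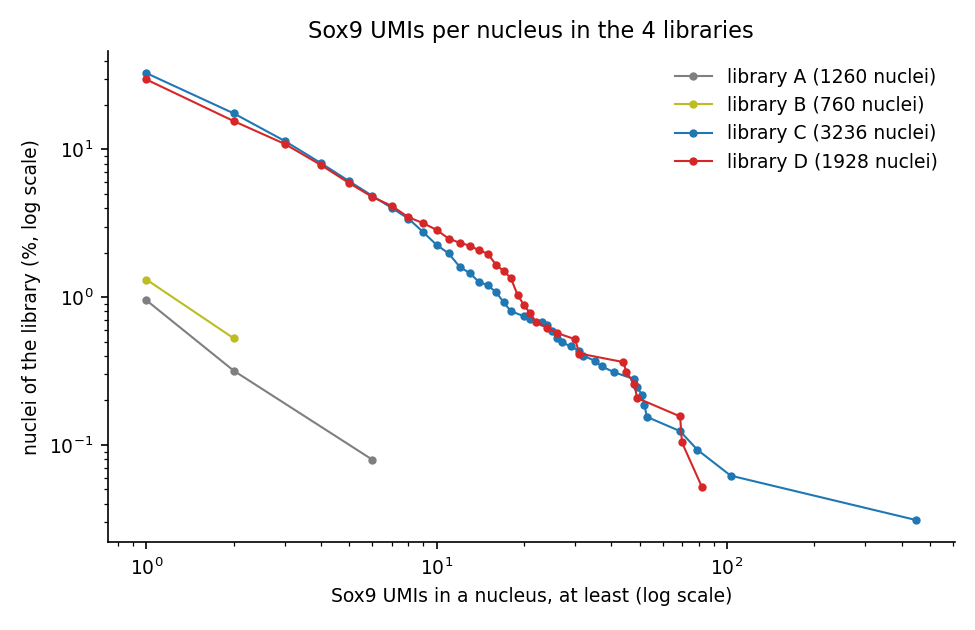
Share of the nuclei of each library (y axis, percent, log scale) with at least the number of Sox9 UMIs on the x axis (log scale), for libraries A, B, C and D. The curves of C and D start at 32.9% and 29.8% for 1 UMI and end at nuclei with 449 and 82 UMIs, while those of A and B start at 0.952% and 1.32% and end at 6 and 2 UMIs.

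From the lowest bin to the highest, C had 2172, 695, 172, 124 and 73 nuclei and D had 1354, 364, 96, 59 and 55. The top bin was 2.26% of the nuclei of C and 2.85% of those of D, and it held 46.7% and 51.0% of their Sox9 UMIs. The bins had levels of 0, 0.979, 2.31, 4.49 and 16.98 Sox9 UMIs per 10000 in C, and of 0, 0.903, 2.33, 4.46 and 12.9 in D. The doses of the libraries were thus near each other in every bin except the top. Without the nucleus with 449 Sox9 UMIs the top bin of C stood at 13.6, nearer to that of D. Sequencing depth climbed with the bins too. The median nucleus had 10387, 12096, 12924, 13969.5 and 15314 UMIs from the lowest bin to the highest in C, and 11173.5, 12724, 12949, 13154 and 15429 in D. Its part in the results was not tested beyond working per 10000 UMIs and an alternative restricted to nuclei with 8000 to 16000 UMIs. A and B had no bin above 0 with 20 nuclei and enter with their nuclei at 0 alone.

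Sox9 differed between classes of nuclei, which came from clusters made without Sox9. Transitional-like nuclei, which carry genes of cells on the way between ATII and ATI, had the highest level of the named classes, and airway secretory-like nuclei the lowest. In C the level per 10000 was 0.145 (0.0813 to 0.240) in airway secretory-like, 0.394 (0.360 to 0.431) in ATI-like, 0.523 (0.479 to 0.570) in ATII-like and 1.47 (1.40 to 1.55) in transitional-like nuclei. D kept this order with 0.154 (0.0976 to 0.231), 0.437 (0.388 to 0.491), 0.530 (0.473 to 0.593) and 1.18 (1.105 to 1.26). The intervals of the ATI-like and ATII-like nuclei met in D and not in C. In C a single transitional-like nucleus held 449 of the 1402 Sox9 UMIs of its class. The narrow interval of that class does not take this into account. The unnamed clusters 6 and 9 lay at 0.402 and 0.397 in C and at 0.466 and 0.376 in D. The level of the transitional-like class depended on the clustering: at a resolution of 1.2 it was 0.669 in C and 0.556 in D.

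An unnamed cluster, number 8 (307 nuclei, led by Col9a3, Col27a1, Wfdc18, Lama4 and Plat), was the richest in Sox9. Its level per 10000 UMIs was 6.48 (6.17 to 6.80) in its 205 nuclei of C and 6.498 (6.04 to 6.98) in its 93 nuclei of D. A Sox9 UMI was present in 88.3% (83.1 to 92.4) of these nuclei in C and 89.2% (81.1 to 94.7) in D. The cluster held 48.7% of all nuclei of C with 5 or more Sox9 UMIs, against 1.105% of those with 0, and in D 35.1% against 0.739%. Library A had 3 nuclei in it with 0 Sox9 UMIs and B had 6 with 1. The small unnamed cluster 11 had 3.08 (2.26 to 4.11) per 10000 in 23 nuclei of C and 1.16 (0.557 to 2.13) in 13 nuclei of D.

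Airway secretory cells line the conducting airways. Their class is read here in C and D, since libraries A and B had 0 nuclei in it. All cultures received virus, and the source of the Sox9 UMIs in these nuclei is not known. They therefore cannot serve as a check on free RNA. A Sox9 UMI was found in 13 of 71 airway secretory-like nuclei of C, 18.3% (10.1 to 29.3), and 18 of 86 of D, 20.9% (12.9 to 31.0), at median depths of 13376 and 17119 UMIs. The ATI-like shares overlapped these, 23.6% (21.1 to 26.2) in C at a median of 9751 UMIs and 20.3% (17.1 to 23.8) in D at 9720, so no difference from that class is read from them. No airway secretory-like nucleus reached 5 UMIs, against 7.11% of transitional-like nuclei of C and 7.39% of D. Whether nuclei with 1 to 2 UMIs hold free RNA, viral RNA or RNA of the gene was not tested.

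Genes were compared between each bin and the nuclei of the same library with 0 Sox9 UMIs. A gene counted as changed when its level differed at least 2-fold in the same direction in both C and D, with at least 30 UMIs over both bins. At 1 to 2 UMIs 79 of 13226 genes were higher (0.597%) and 7 were lower (0.0529%). At 3 to 4 UMIs 98 (0.767%) were higher and 68 (0.532%) lower, and at 5 to 9 UMIs 218 (1.72%) and 132 (1.04%). At 10 or more UMIs 452 of 12748 genes were higher (3.55%) and 450 lower (3.53%). The number of changed genes grew with each bin in both directions, while the bins shrink, so that counting error grows as well. At each of the 4 steps between bins 215 genes rose in both libraries (1.69%) and 136 fell (1.07%). Without cluster 8 the counts at 10 or more UMIs were 225 (1.78%) and 258 (2.04%) of 12661.

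The 10 genes with the highest fold of nuclei with 5 or more over nuclei with 0 Sox9 UMIs were Lama4, Col9a3, Ctse, Col27a1, Plat, Vim, Pdzrn3, Fam89a, B4galt6 and Wfdc18. They were chosen for that fold, so their values describe it and do not test it. Several of them also lead cluster 8. Lama4 (chr10:38965515-39110188), a laminin chain of basement membranes, had 0.00636, 0.0372, 0.215, 0.348 and 0.745 UMIs per 10000 from the lowest to the highest bin of C and 0.00714, 0.0378, 0.122, 0.428 and 0.461 in D. Its level in nuclei with 0 Sox9 UMIs was 0.00300 in A and 0.00105 in B. Lama4 was higher at every step in both libraries, and the bin of 1 to 2 UMIs already lay above the nuclei with 0 of all 4 libraries. Outside cluster 8 Lama4 was 27.6-fold (11.5 to 70.8) higher with 5 or more than with 0 Sox9 UMIs in C and 45.7-fold (22.1 to 104) in D.

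Plat (chr8:22757722-22782848), tissue plasminogen activator, had 0.0393, 0.171, 0.442, 1.496 and 2.06 UMIs per 10000 from the lowest bin to the highest in C. In D it had 0.0529, 0.248, 0.272, 1.01 and 1.32. A Plat UMI was present in 46.2% of nuclei of C with 5 or more Sox9 UMIs, against 2.67% of those with 0, and in D in 36.8% against 3.32%. Of the 10 genes Plat was seen in the most Sox9-high nuclei of both libraries. Outside cluster 8 it was 11.7-fold (8.38 to 16.2) and 11.3-fold (8.03 to 15.997) higher.

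Vim (chr2:13574311-13582826), vimentin, an intermediate filament of mesenchymal and migrating cells, had 0.0223, 0.0394, 0.0677, 0.155 and 0.804 in C and 0.0226, 0.0378, 0.0573, 0.773 and 0.922 in D. It jumped at the top bin of C and at 5 to 9 UMIs in D. A Vim UMI was found in 13.7% of Sox9-high nuclei in C against 1.70% of nuclei with 0, and in 14.9% against 1.33% in D. Outside cluster 8 Vim was 4.43-fold (2.37 to 7.84) in C and 2.12-fold (0.733 to 5.06) in D, where the interval spans no change.

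Cartilage collagens were among these genes. Col9a3 and Col27a1 also lead cluster 8, and their levels by bin include that cluster. It held 48.7% of nuclei of C with 5 or more Sox9 UMIs against 1.105% of those with 0. In D these shares were 35.1% and 0.739%. Col9a3 (chr2:180598102-180622192), a chain of the collagen IX that coats cartilage fibrils, had 0.00993, 0.0405, 0.0797, 0.447 and 0.838 from the lowest bin to the highest in C and 0.00773, 0.0258, 0.0502, 0.392 and 0.611 in D. Col27a1 (chr4:63214009-63334991), a fibrillar collagen of cartilage, had 0.00795, 0.0602, 0.139, 0.397 and 0.838 in C and 0.0131, 0.0656, 0.122, 0.547 and 0.311 in D. Col27a1 peaked at 5 to 9 UMIs in D and at the top bin in C. Ctse (chr1:131638314-131675507), an aspartic protease of the stomach lining, had 0.695 against 0.0179 in nuclei with 5 or more and with 0 Sox9 UMIs in C, and 0.953 against 0.0226 in D. Pdzrn3 (a ubiquitin ligase), Fam89a and B4galt6 (a galactosyltransferase) were between 11.6-fold and 26.4-fold higher in those nuclei.

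**Figure D2:**
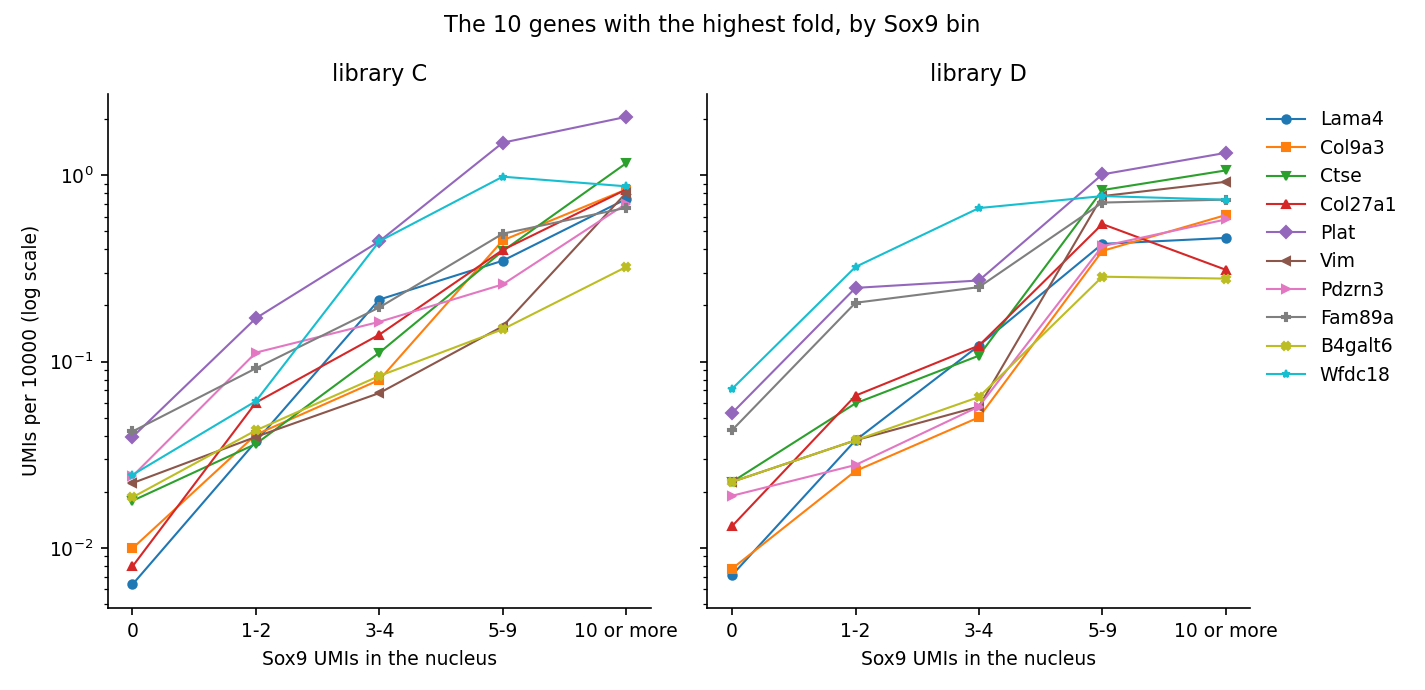
UMIs per 10000 (y axis, log scale) of the genes with the highest fold in each Sox9 bin (x axis, Sox9 UMIs in the nucleus) of library C (left) and library D (right). Lines link the bins of a gene. Plat ends at 2.06 in C and 1.32 in D, and Col27a1 ends below its highest level in D.

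Promoters of a pair of these genes differed in openness, and their sequences (RefSeq, GRCm38.p6, 250 bases before to 50 after the start) are shown for that reason, a choice made after the values were seen. Wfdc18 (chr11:83709004-83711360) encodes a secreted whey acidic protein domain protein. Its promoter peak (chr11:83708441-83709344) was almost closed in nuclei with 0 Sox9 UMIs and more open in the high bins, whereas the Col27a1 promoter peak (chr4:63214924-63215828) did not change by 1.5-fold in C or D. Capitals mark 4 motifs, on either strand: the SOX core AACAAT, the TATA box TATAAA, the CCAAT box and the GC box GGGCGG. The motifs do not overlap one another in these windows.
Wfdc18 promoter, chr11:83708754-83709053, plus strand: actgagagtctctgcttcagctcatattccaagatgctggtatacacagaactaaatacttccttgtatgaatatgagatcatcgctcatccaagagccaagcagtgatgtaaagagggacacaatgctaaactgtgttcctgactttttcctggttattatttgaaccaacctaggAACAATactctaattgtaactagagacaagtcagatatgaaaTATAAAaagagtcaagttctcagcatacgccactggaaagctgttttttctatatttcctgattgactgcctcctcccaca
Col27a1 promoter, chr4:63215162-63215461, plus strand: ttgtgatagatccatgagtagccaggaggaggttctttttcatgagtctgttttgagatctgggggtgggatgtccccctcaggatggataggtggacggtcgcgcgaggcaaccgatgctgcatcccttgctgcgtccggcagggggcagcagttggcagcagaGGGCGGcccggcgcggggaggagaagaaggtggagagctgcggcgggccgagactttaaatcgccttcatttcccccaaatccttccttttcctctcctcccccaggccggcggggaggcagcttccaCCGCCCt
The Wfdc18 window held 1 SOX core and 1 TATA box, and the Col27a1 window held 2 GC boxes and no SOX core. Of 32851 RefSeq promoter windows of this length 10.7% held the SOX core, 13.6% the TATA box, 37.4% the CCAAT box and 35.7% the GC box. Of the 27 genes among the 10 highest, the 10 lowest or the 8 most like Sox9 in level, 17 had a promoter entry. The SOX core was in 3 of these: Wfdc18 of the 10 highest, and Akr1c14 and Fbln5 of the 10 lowest. Some genes had several windows, so this count of genes cannot be set against the share of windows.

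In ATAC counts per 10000 in peaks, the Wfdc18 promoter peak had 0.00593, 0.0254, 0.0192, 0.117 and 0.186 from the lowest bin to the highest in C and 0.00449, 0.0172, 0.0820, 0.176 and 0.175 in D. That was 39 against 13 counts in nuclei of C with 5 or more and with 0 Sox9 UMIs, 24.4-fold (12.7 to 49.8) higher, and 38 against 9 in D, 39.1-fold (18.6 to 91.9), where the peak falls short of the minimum of 50 counts. The Col27a1 promoter peak had 0.0890 against 0.0959 in C, 0.929-fold (0.582 to 1.42), and 0.111 against 0.0958 in D, 1.16-fold (0.724 to 1.77). At 3 to 4 Sox9 UMIs in D this peak was 0.593-fold (0.267 to 1.15), from 9 counts. Wfdc18 RNA was 0.939 against 0.0246 UMIs per 10000 in C and 0.755 against 0.0714 in D, while libraries A and B had 0 Wfdc18 UMIs in their nuclei with 0 Sox9 UMIs, which allows up to 0.00225 and 0.00314 per 10000.

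The genes whose levels followed Sox9 most closely over the 12 library-by-bin points (with the 0 bins of A and B) were Greb1l, Prkg1, Cdcp1, Col9a3, Tubb2b, Lpcat2, Serpine2 and Sorbs2, with Spearman correlations of 0.98 each. The points share libraries and depth, so this is a description. Greb1l had 0.225, 0.401, 0.466, 1.09 and 1.58 UMIs per 10000 from the lowest bin to the highest in C and 0.204, 0.370, 0.487, 0.880 and 1.37 in D. Tubb2b, a beta tubulin, had 0.194, 0.320, 0.450, 1.40 and 3.86 in C and 0.218, 0.346, 0.494, 0.999 and 2.83 in D. Serpine2, a secreted inhibitor of serine proteases such as the product of Plat, had 0.396, 0.612, 0.849, 1.29 and 1.86 in C and 0.387, 0.533, 0.652, 1.15 and 1.59 in D. All 8 were higher at every step between bins in both libraries. Prkg1 (a cGMP-dependent kinase), Lpcat2 (a lysophospholipid acyltransferase) and Sorbs2 (an actin-linked adaptor) were between 3.47-fold and 7.89-fold higher with 5 or more than with 0 Sox9 UMIs. Cdcp1, a membrane protein, was 1.69-fold and 1.59-fold higher in C and D, which is under the 2-fold rule.

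Of the 191 genes of the lists that were tested, 22 were higher (11.5%) and 41 lower (21.5%) in the top bin of both libraries, against 3.55% and 3.53% of all genes. Without cluster 8 these were 9 and 25 of 187 (4.81% and 13.4%), against 1.78% and 2.04% of all genes. The lists were drawn up with earlier results of these data known, so these shares describe them and support nothing. Sox9 acts with Sox5 and Sox6 in cartilage, and these partners differed. Sox6 had 0.175, 0.326, 0.669, 1.57 and 3.51 UMIs per 10000 from the lowest bin to the highest in C and 0.233, 0.406, 0.638, 1.46 and 2.96 in D. Sox5 had 0.728 against 0.898 in nuclei with 10 or more and with 0 Sox9 UMIs in C, and 0.547 against 0.762 in D. Sox13, of the same SoxD group, was 2.77-fold and 4.28-fold higher in the top bin. Sox8 and Sox10, the closest relatives of Sox9, had 0 UMIs in the top bin of either library, which allows up to 0.0254 per 10000 in C and 0.0322 in D.

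Of the 19 listed cartilage genes 8 had enough UMIs in both libraries in the top bin. Of these Sox6, Col2a1, Col9a3, Col11a2 and Col27a1 were higher and Matn4 and Fgfr3 lower, against 3.55% and 3.53% of all genes. The median log2 fold was 5.27 over the 10 members tested in C, which add Col11a1 and Chst11, and 3.42 over the 8 tested in D, against 0.08 and -0.00296 over all genes. Members that passed the minimum through the top bin had to differ, so this median supports nothing. Col2a1, the main collagen of cartilage, had 42 UMIs in the 73 top-bin nuclei of C and 25 in the 55 of D. Acan, the cartilage proteoglycan, had 0 UMIs in both top bins. The summed cartilage level was 2.42, 2.56, 2.88, 4.08 and 7.76 from the lowest bin to the highest in C and 2.25, 2.35, 2.36, 4.39 and 5.61 in D.

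Of 20 ATII genes tested none was lower in both libraries at 1 to 2 or 3 to 4 Sox9 UMIs, 2 were at 5 to 9 (Sftpa1 and Lyz1) and 7 at 10 or more. Their summed level, most of it Sftpc, was 559.8, 506, 463, 315 and 196 per 10000 from the lowest bin to the highest in C and 575, 480.2, 455, 398 and 250.2 in D. The 7 genes at 10 or more UMIs were Sftpc, Sftpb, Slc34a2, Napsa, Lyz1, Muc1 and Chil1, and the 20 had median log2 folds of -1.12 in C and -0.94 in D. Among all genes tested, 1.04% were lower at 5 to 9 UMIs and 3.53% at 10 or more. Sftpc, the surfactant protein of ATII cells, had 138 against 434 UMIs per 10000 in C and 188 against 452 in D. Napsa, a protease that processes surfactant protein, had 2.63 against 9.91 in C and 2.36 against 9.70 in D.

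Of 19 ATI genes tested none was lower in both libraries at 1 to 2 Sox9 UMIs, 4 were at 3 to 4 (Pdpn, Rtkn2, Cav1 and Sec14l3), 5 at 5 to 9 and 13 at 10 or more. Their summed level was 103, 79.8, 67.3, 41.7 and 32.6 in C and 106, 82.1, 60.6, 59.4 and 36.5 in D. None was higher in both at 10 or more UMIs, where the 19 had median log2 folds of -1.68 in C and -1.46 in D. Among all genes tested, 0.532% were lower at 3 to 4, 1.04% at 5 to 9 and 3.53% at 10 or more UMIs. Ager, the receptor RAGE of ATI membranes, had 6.44 against 27.1 UMIs per 10000 in C and 7.59 against 28.3 in D. Hopx, a homeodomain protein of ATI cells, had 1.75 against 4.98 in C and 1.97 against 5.09 in D. Col4a3 and Col4a4, basement membrane collagens, were 0.154-fold and 0.129-fold in C and 0.148-fold and 0.156-fold in D. In single libraries some ATII genes passed at the lowest dose: Lyz1 in C and Chil1 in D were at least 2-fold lower at 1 to 2 UMIs, where no ATI gene was. Whether the lists differ in the dose at which they change was not tested.

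The transitional genes were mixed. At 10 or more UMIs 5 of 19 tested were higher in both libraries (Lgals3, Ndrg1, Fhl2, F3 and Cnn3) and Itgb6 was lower, with median log2 folds of 0.54 in C and 0.72 in D. Among all genes tested, 3.55% were higher and 3.53% lower in that bin. F3, tissue factor, which starts coagulation, had 11.6 against 1.54 UMIs per 10000 in C and 18.0 against 2.59 in D. Lgals3, the lectin galectin-3, had 15.4 against 5.43 in C and 24.8 against 7.33 in D. The keratins of the same list did not pass in both: Krt8 was 1.35-fold and 1.19-fold, and Krt19 0.489-fold and 0.505-fold.

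Of 15 epithelial identity genes tested, Epcam and Ehf were higher in the top bin of both libraries and none was at least 2-fold lower. Among all genes tested, 3.55% were higher and 3.53% lower in that bin. Epcam, an adhesion protein, had 5.60 against 2.46 in C and 5.97 against 2.86 in D. Ehf, an epithelial ETS factor, had 4.66 against 0.663 in C and 3.22 against 0.765 in D. Of 6 epithelial-mesenchymal transition genes tested Vim, Zeb1 and Itga5 were higher and Sparc was lower. Zeb1, a repressor of epithelial genes, had 0.128, 0.131, 0.135, 0.110 and 0.262 from the lowest bin to the highest in C and 0.146, 0.147, 0.150, 0.0595 and 0.311 in D. It passed in both libraries in the top bin alone, and in D its bin of 5 to 9 UMIs, with 5 Zeb1 UMIs, lay at least 2-fold below the nuclei with 0. The median log2 fold was 1.30 over the 7 members tested in C, where Fn1 and Zeb2 passed as well, and 0.58 over the 6 tested in D, yet the list's summed level was 5.17 against 12.2 in C and 6.27 against 11.6 in D. Sparc alone made up 2.46 against 11.4 of that sum in C and 3.87 against 10.6 in D. The 10 mesenchymal markers summed to at most 0.118 in any bin above 0.

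**Figure D3:**
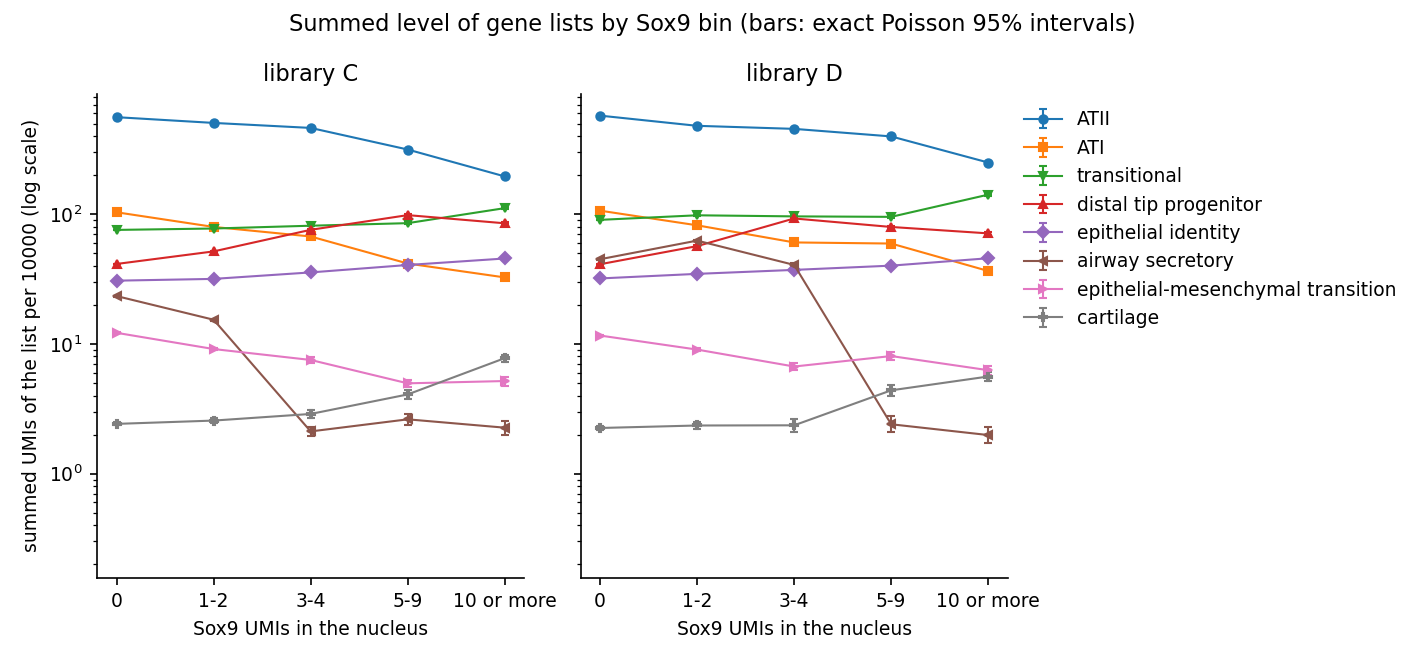
Summed UMIs per 10000 (y axis, log scale) of gene lists by Sox9 bin (x axis) in library C (left) and library D (right), with exact Poisson 95% intervals. The ATII line ends at 196 in C and 250.2 in D and the ATI line at 32.6 and 36.5, both below their start, while the cartilage line ends at 7.76 and 5.61, above its start.

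Of 15 genes of the distal lung tip tested, Clu (clusterin) was higher in the top bin and Bmp4, Spry2 and Shh were lower. Clu had 30.6, 40.8, 65.3, 88.0 and 75.5 UMIs per 10000 from the lowest bin to the highest in C and 30.5, 46.4, 83.1, 68.9 and 63.5 in D. Shh, a ligand of branching epithelium, had 0.0508 against 0.238 in the top bin of C and 0.0536 against 0.234 in D. These genes had a median log2 fold of -0.35 in C and -0.37 in D, while their summed level was higher in the top bin, at 85.1 against 41.3 and 71.2 against 41.1. Of 21 tested genes in signals that act on Sox9, only Gli3, a Hedgehog pathway factor, was higher, at 3.55-fold and 5.53-fold; 1 gene of 21 is near the 3.55% of all genes, so it is no result about that list. None of 15 tested modifiers and partners of SOX9 passed. Of 16 stress genes Jun and Atf3, early response factors, were higher, at 2.07-fold and 2.81-fold in C and 2.04-fold and 4.04-fold in D. Of 7 cell cycle genes tested Mcm6 was higher, of 6 ciliated cell genes Dynlrb2 and Tppp3 were lower, and so was the mesothelial gene Msln. Of all genes 3.55% were higher and 3.53% lower in the top bin. Counts of 1 or 2 genes in these short lists are no result about the lists. None of 3 immune, 2 basal, 2 Notch target, 1 endothelial and 1 neuroendocrine gene tested passed, and no mesenchymal marker had enough UMIs. At 1 to 2 UMIs the listed genes that passed were Ctse, Col27a1, Ccdc153, Rsph1, Hydin and Dnah5, all higher, and Trp63, lower. Trp63 is a basal cell gene, and Ccdc153, Rsph1, Hydin and Dnah5 are ciliated cell genes. The ciliated list did not keep this direction. At 3 to 4 UMIs 5 of 6 tested were lower, Rsph1 among them, as were 5 of 6 at 5 or more. At resolution 1.2 the ciliated-like cluster held 22 nuclei in all, so few nuclei can set these values.

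The 10 genes with the lowest fold at 5 or more UMIs were Cbr2, Bpifa1, Scgb3a1, Scgb1a1, Hp, Scnn1g, Cyp2f2, Lama3, Akr1c14 and Fbln5, again a description. Cbr2, Bpifa1, Scgb3a1, Scgb1a1 and Cyp2f2 are airway secretory genes, a list of which 11 of 12 were lower in the top bin, and the airway secretory-like class, 2.67% of the nuclei of C at 0 UMIs and 5.02% of those of D, had no nucleus with 5 or more. Without that class, an alternative chosen after seeing the data, the log2 fold of Cyp2f2 turned to 0.24 in C and was -2.81 in D. Those of Cbr2, Bpifa1, Scgb3a1 and Scgb1a1 kept their sign but were nearer 0, at -1.64, -0.60, -0.25 and -1.70 in C and -2.18, -1.66, -0.70 and -1.63 in D. Lama3, a laminin chain of epithelial hemidesmosomes, had 0.960, 0.630, 0.255, 0.121 and 0.144 UMIs per 10000 from the lowest bin to the highest in C and 0.935, 0.674, 0.258, 0.214 and 0.172 in D. Fbln5, an elastic fibre protein, had 0.867, 0.588, 0.430, 0.248 and 0.0593 in C and 0.775, 0.618, 0.236, 0.297 and 0.0965 in D. Both were lower in the top bin than at 0 UMIs in both C and D.

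Since bins differ in their mix of classes, the same genes were read inside transitional-like nuclei, a split chosen after seeing the data. There C had 54 and D 41 nuclei with 5 or more Sox9 UMIs, against 481 and 368 with 0. Lama3 had 0.104 against 1.08 UMIs per 10000 in C, 0.0966-fold (0.0415 to 0.191), and 0.134 against 1.02 in D, 0.131-fold (0.0562 to 0.260). Sox6 had 0.961 against 0.180 in C, 5.33-fold (3.90 to 7.24), and 2.04 against 0.197 in D, 10.3-fold (7.83 to 13.7). Plat was 4.46-fold (2.54 to 7.65) and 8.76-fold (5.18 to 14.9) higher, and Greb1l 4.23-fold (2.89 to 6.11) and 5.43-fold (3.84 to 7.62). Vim was 3.64-fold (1.72 to 7.30) in C and 1.47-fold (0.443 to 3.88) in D. The summed ATI list was 46.1 against 117 in C and 36.7 against 122 in D, and the ATII list 54.5 against 137 in C and 40.5 against 124 in D. The transitional list was 161 against 164 in C and 185 against 184 in D, close to level. These values depend on where the class ends. At resolution 1.2 the cluster led by Lama4, Col27a1, Wfdc18 and Plat held 487 nuclei in place of 307, and the transitional-like class kept 28 nuclei with 5 or more Sox9 UMIs in C and 18 in D, under the minimum of 20. There Lama3 was 0.186-fold (0.0847 to 0.355) and Sox6 2.34-fold (1.22 to 4.15) in C with 5 or more against 0 Sox9 UMIs, and Vim had 1 UMI. With any Sox9 UMI against 0, Lama3 was 0.436-fold (0.361 to 0.523) in C and 0.601-fold (0.488 to 0.735) in D, and Sox6 2.56-fold (1.89 to 3.46) and 3.10-fold (2.20 to 4.39).

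The Sox9 gene (chr11:112782210-112787757, GRCm38.p6) carries 3 ATAC peaks, and all were more open in Sox9-high nuclei. Summed, they had 0.578, 1.12, 1.45, 1.56 and 3.75 ATAC counts per 10000 in peaks from the lowest bin to the highest in C and 0.472, 0.797, 0.915, 1.73 and 2.18 in D. Nuclei with 5 or more Sox9 UMIs had 2.43 against 0.578 in C, 4.21-fold (3.82 to 4.62), and 1.98 against 0.472 in D, 4.198-fold (3.74 to 4.71). With each peak counted as open or closed per nucleus, the folds were 2.43 and 2.61. The nucleus with 449 Sox9 UMIs had 96 of the 402 counts of the top bin of C, without which the bin stood at 2.98. ATAC reads of the viral Sox9 sequence and of the chromosomal gene cannot be told apart here.

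Nuclei with 0 Sox9 UMIs were not alike between libraries at these peaks. They had 0.105 (0.0867 to 0.127) counts per 10000 in library A, 0.106 (0.0788 to 0.140) in library B, 0.578 (0.547 to 0.611) in library C and 0.472 (0.442 to 0.503) in library D. At least 1 count in the 3 peaks was present in 7.05% of such nuclei of A, 5.20% of B, 28.6% of C and 34.9% of D, at ATAC depths that also differed. The peak chr11:112784666-112785551, in the gene body, had the widest spread, with 0.0144 for A, 0.0149 for B, 0.242 for C and 0.180 for D. The peak at the gene start, chr11:112782331-112783169, had 0.0652, 0.0743, 0.208 and 0.183. In the other 140 peaks of the window the 4 libraries lay close together, at 10.1, 10.2, 10.5 and 10.4.

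**Figure D4:**
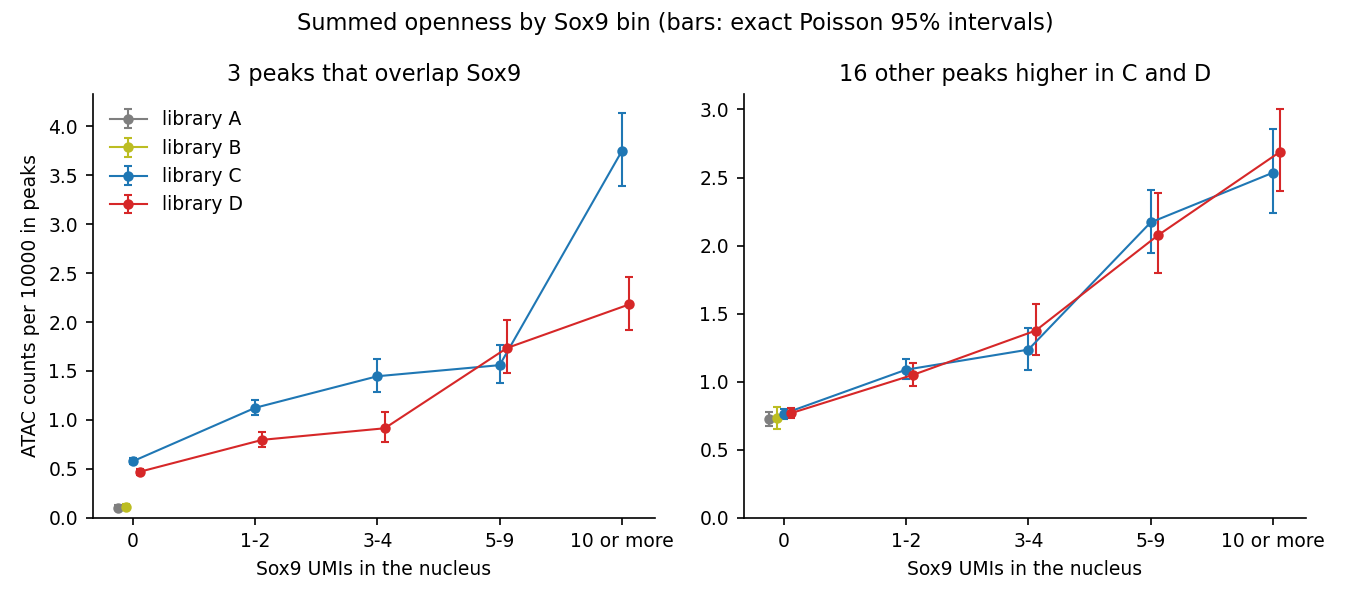
ATAC counts per 10000 in peaks (y axis) summed over the 3 peaks that overlap Sox9 (left) and over 16 other window peaks that were higher in both libraries (right), by Sox9 bin (x axis), with exact Poisson 95% intervals; A and B have the 0 bin alone. At 0 Sox9 UMIs the 3 Sox9 peaks stand at 0.105 and 0.106 in A and B against 0.578 and 0.472 in C and D, whereas the 16 other peaks start between 0.723 and 0.769 in all 4 libraries.

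Of the 143 window peaks, the 3 of Sox9, 27 in a stretch from 400 to 750 kb downstream and 81 elsewhere had at least 50 counts over both bins in each library. Of these 19 were at least 1.5-fold higher with 5 or more than with 0 Sox9 UMIs in both libraries, 17.1% against 8.89% of all peaks tested, and 7 were lower, 6.31% against 8.04%. The 3 Sox9 peaks are among the 19. The median log2 fold over the window peaks tested was 0.03 in C and 0.07 in D, against -0.06 and -0.08 over all peaks. Restricted to nuclei with 8000 to 16000 UMIs, 10 peaks outside Sox9 passed in place of 16. The 16 were chosen for being higher, so their sum is a description: it was 0.765, 1.09, 1.24, 2.17 and 2.54 from the lowest bin to the highest in C and 0.769, 1.05, 1.38, 2.08 and 2.69 in D. At 0 UMIs it was 0.723 in A and 0.730 in B, near the levels of C and D.

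Of the 16 peaks, 12 lay between 400 and 750 kb downstream of the Sox9 start, where 27 peaks were tested and none was lower, against 4 higher and 7 lower of 81 in the rest of the window. That stretch was singled out after its values were seen. The highest fold among the well covered peaks was at chr11:113221062-113221978, 439 kb downstream and outside any gene. It had 0.0215, 0.0507, 0.0910, 0.210 and 0.289 from the lowest bin to the highest in C and 0.0284, 0.0687, 0.139, 0.196 and 0.251 in D. It was higher at every step in both libraries. With 5 or more against 0 Sox9 UMIs it was 11.2-fold (7.61 to 16.7) higher in C and 7.96-fold (5.32 to 11.9) in D.

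Of the next 4 peaks by fold 3 lay downstream as well. A peak inside Slc39a11 (chr11:113291991-113292986, 510.3 kb downstream) was 7.71-fold (5.25 to 11.3) higher in C and 6.09-fold (4.14 to 8.88) in D. The peak chr11:113231812-113232747 (450.1 kb, outside any gene) was 5.52-fold (3.51 to 8.59) and 7.80-fold (4.72 to 12.8) higher. A second peak in Slc39a11, chr11:113507805-113508776 (726 kb), was 4.43-fold (3.06 to 6.34) and 5.51-fold (3.80 to 7.91) higher. Upstream of the gene lay chr11:112065664-112066576, at -716 kb from the start, with 3.68-fold (2.50 to 5.33) and 4.58-fold (3.16 to 6.56).

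The peak chr11:112711242-112712171, upstream at the edge of the lncRNA gene BC006965, had too few counts in D for the rule and is named after its values were seen. It had 62 against 16 counts in nuclei of C with 5 or more and with 0 Sox9 UMIs, 31.5-fold (18.0 to 58.5), and 17 against 11 in D, 14.3-fold (6.32 to 33.8). Libraries A and B had 2 and 0 counts there. A further thinly covered peak, chr11:113259499-113260443 in Slc39a11, had 34 against 17 counts in C and 29 against 15 in D, 16.3-fold (8.83 to 31.0) and 17.9-fold (9.29 to 35.9).

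Among the 5 lowest peaks, chr11:113748318-113749277 in Cdc42ep4, 967 kb downstream, had the most counts. It stood at 0.0890 against 0.230 in C, 0.387-fold (0.246 to 0.583), and 0.106 against 0.228 in D, 0.466-fold (0.292 to 0.708). The peak chr11:111970800-111971704, upstream at -811 kb from the start, had 5 against 116 counts in C and 3 against 100 in D. The other low peaks of the rule (chr11:111781133-111782107, chr11:112897289-112898182 and chr11:111683814-111684776) had at most 8 counts in the Sox9-high nuclei of either library.

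**Figure D5:**
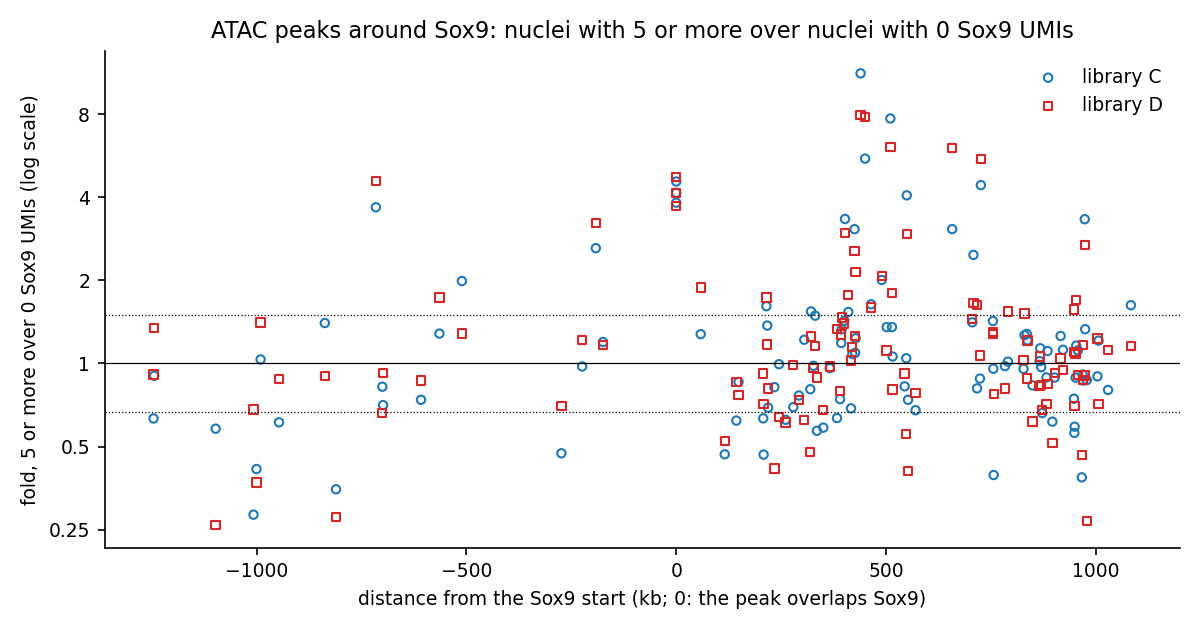
Fold of ATAC level in nuclei with 5 or more over nuclei with 0 Sox9 UMIs (y axis, log scale) for the window peaks tested, by distance from the Sox9 start (x axis, kb), in libraries C and D. Dotted lines mark 1.5-fold in each direction; 12 of the 27 peaks between 400 and 750 kb lie above the upper line in both libraries.

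The openness of the window was also read inside classes. In cluster 8 of C, 24 nuclei had 0 Sox9 UMIs, and the 16 other peaks stood at 1.83 there, against 0.753 outside it. Inside it the 16 were 0.970-fold (0.676 to 1.41) at 1 to 2 UMIs and 1.62-fold (1.18 to 2.27) at 5 or more. The 3 Sox9 peaks were 2.29-fold (1.53 to 3.56) there at 5 or more. Outside it the 16 were 2.32-fold (2.02 to 2.65) in C and 2.79-fold (2.46 to 3.15) in D at 5 or more. In D the cluster had 10 nuclei at 0, under the minimum. In transitional-like nuclei the 3 Sox9 peaks had 3.63 against 0.625 with 5 or more and with 0 Sox9 UMIs in C, 5.80-fold (4.88 to 6.90), and 1.98 against 0.501 in D, 3.95-fold (3.23 to 4.82). The nucleus with 449 Sox9 UMIs is in this class, and it had 96 of the 240 counts behind the value of C; without it the level was 2.33 and the difference 3.73-fold (3.04 to 4.57). Below the top bin C showed no further step with dose: the class was 2.49-fold (2.11 to 2.94) higher at 1 to 2, 2.17-fold (1.68 to 2.76) at 3 to 4 and 1.98-fold (1.43 to 2.68) at 5 to 9 Sox9 UMIs. The 16 other peaks were 2.41-fold (1.98 to 2.93) and 2.77-fold (2.35 to 3.26) higher with 5 or more UMIs in C and D. At resolution 1.2 the class in C stood at 2.20-fold (1.55 to 3.06) for the 3 Sox9 peaks and 1.75-fold (1.29 to 2.34) for the 16. In ATII-like nuclei with any Sox9 UMI the 3 Sox9 peaks were 1.81-fold (1.54 to 2.11) and 1.76-fold (1.43 to 2.18) higher than at 0, and in ATI-like nuclei 1.73-fold (1.49 to 2.00) and 1.56-fold (1.29 to 1.88). The 23 ATII-like nuclei of C with 5 or more Sox9 UMIs had 26 counts in the 3 Sox9 peaks, a level of 0.804 against 0.607 at 0. That was 1.32-fold (0.852 to 1.98), where the interval spans no change, and at 3 to 4 UMIs the class was 2.47-fold (1.92 to 3.14) higher. The 16 other peaks were 2.47-fold (1.79 to 3.35) higher in those 23 nuclei. With any Sox9 UMI they were 1.28-fold (1.08 to 1.52) and 1.43-fold (1.16 to 1.76) in ATII-like nuclei of C and D. In ATI-like nuclei they were 1.34-fold (1.16 to 1.55) and 1.22-fold (1.02 to 1.44). ATII-like nuclei of D and ATI-like nuclei of both libraries were under the minimum of 20 at 5 or more UMIs.

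Of the 12 other genes placed in the window, the lncRNA gene 2610035D17Rik (chr11:113043906-113201838) changed its RNA with dose and had enough UMIs in both libraries. It had 0.697, 1.00, 1.63, 2.97 and 3.29 UMIs per 10000 from the lowest bin to the highest in C and 0.631, 0.877, 1.32, 2.76 and 2.33 in D. With 5 or more against 0 Sox9 UMIs it had 3.10 against 0.697 in C, 4.45-fold (4.10 to 4.82), and 2.53 against 0.631 in D, 4.01-fold (3.58 to 4.48). Inside transitional-like nuclei 2610035D17Rik was 2.29-fold (1.92 to 2.72) and 2.56-fold (2.10 to 3.11) higher. Its promoter is shown because its RNA and its openness went apart with 5 or more against 0 Sox9 UMIs. It has a TATA box, 2 CCAAT boxes and a GC box and no SOX core, with capitals for the same 4 motifs.
2610035D17Rik promoter, chr11:113201789-113202088, minus strand: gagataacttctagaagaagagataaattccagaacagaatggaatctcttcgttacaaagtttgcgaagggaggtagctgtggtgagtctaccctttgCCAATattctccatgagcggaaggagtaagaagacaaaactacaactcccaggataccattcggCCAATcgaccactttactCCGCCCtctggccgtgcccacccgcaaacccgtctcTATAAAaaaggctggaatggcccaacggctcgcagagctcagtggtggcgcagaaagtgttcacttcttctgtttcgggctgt
The peak on this promoter (chr11:113201314-113202173) had 0.215 against 0.199 in C, 1.08-fold (0.807 to 1.42), and 0.222 against 0.194 in D, 1.15-fold (0.830 to 1.55). The bins of D differed, with 1.55-fold (1.02 to 2.26) at 5 to 9 Sox9 UMIs, from 29 counts, and 0.820-fold (0.488 to 1.30) at 10 or more.

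The coding neighbours Slc39a11, Cog1, Cdc42ep4 and Fam104a differed by under 1.5-fold in both libraries. Slc39a11, a zinc transporter whose introns hold several of the higher peaks, had 0.264 against 0.256 UMIs per 10000 in C, 1.03-fold (0.806 to 1.30), and 0.226 against 0.215 in D, 1.05-fold (0.738 to 1.46). Cog1, a Golgi complex subunit, was 1.05-fold (0.806 to 1.35) and 1.02-fold (0.724 to 1.41). Cdc42ep4, an effector of the GTPase CDC42, was 0.971-fold (0.760 to 1.22) and 0.830-fold (0.585 to 1.15), and Fam104a 1.18-fold (1.03 to 1.34) and 1.19-fold (1.01 to 1.40). D11Wsu47e had 12 UMIs in the Sox9-high nuclei of C and 11 in those of D, 0.635-fold (0.321 to 1.14) and 1.11-fold (0.536 to 2.08). BC006965 had 18 UMIs in the Sox9-high nuclei of C and 4 in those of D, against 1 and 3 in nuclei with 0. Sstr2, Cpsf4l, Sdk2, Gm11681 and 4732490B19Rik had at most 7 UMIs in the Sox9-high nuclei of either library. Several of these genes overlap, and no source used here says how the counting treats shared reads or strand.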

How the data were processed

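Each nucleus gave RNA and ATAC data by 10x multiome. The deposited files hold unnormalized counts, UMIs by gene and ATAC by peak, for 7224 nuclei in a pooled matrix of each kind. The tools Signac 1.10.0, Seurat 4.3.0 and Cell Ranger 6.0.1 and the build GRCm38 (mm10) are named, without roles, per the submitters' processing notes. The sources used here name no peak caller. Files of multiplexing oligos were not used.

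Nuclei with at least 500 UMIs, 300 genes and under 20% mitochondrial counts were kept (7199). Scrublet marked 15 (0.208%), which were left out; at that share the caller has not worked, so doublets can remain. The 7184 nuclei held 13535837, 9735964, 39802631 and 25016636 RNA UMIs and 10564606, 4754957, 34572318 and 29623125 ATAC counts in libraries A, B, C and D. Clusters used 2000 variable genes without Sox9, 30 components, 15 neighbours and Leiden resolution 0.8 (scanpy 1.11.5, leidenalg 0.10.2, scipy 1.17.1, Python 3.11.15, seed 0); a cluster was named from its marker list.

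Levels are summed counts per 10000; a count under 3 was set to 3 in a fold; a bin needed 20 nuclei. Intervals are Poisson for levels, Clopper-Pearson for shares and conditional binomial for folds. Genes needed 30 UMIs over both bins, peaks 50 counts, called at 2-fold and 1.5-fold. Gene positions came from RefSeq (GRCm38.p6). Named genes: Sox9, genes of the window, the 10 highest and 10 lowest by the weaker fold of C and D at 5 or more UMIs (at least 50 UMIs in each library, a UMI in at least 10% of the higher nuclei), the 8 most like Sox9, and list members by level; Sox13, Col2a1, Zeb1, Gli3, Ehf and other list members were named after their values were seen. The gene, bins and 23 lists (302 genes) were chosen with earlier results of these data known. The planned edgeR test of Sox9-Cre against Cre was not run, since no label ties nuclei to samples. The fold counting was tested on simulated data.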

Additional observations from a re-analysis of the deposited data

How the results depend on the processing

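No paired analysis was possible because no label ties the barcodes to samples; leaving out replicates, clustering each library by itself, and clusters or peak sums without a library were not run. The share of nuclei with a Sox9 UMI changed beyond its interval only on thinning to 5000 UMIs, to 0.556% in B, 21.7% in C and 19.3% in D. Of listed genes, 22 were higher and 41 lower at 10 or more UMIs; at 3-fold these were 10 and 23, and without cluster 8 (chosen after seeing the data, as were the settings on the nucleus with most Sox9 UMIs and on shared barcodes) 9 and 25. Of all genes, 452 and 450 became 976 and 1169 at 1.5-fold, 180 and 118 at 3-fold, and 225 and 258 without cluster 8. The fold at the 3 Sox9 peaks became 2.43 in C and 2.61 in D with peaks counted as 0 or 1, 4.97 in C with bins on UMIs per 10000, 3.65 in C without the nucleus with most Sox9 UMIs, 3.75 in C without the highest Scrublet scores, and in D 5.35 at 8000 to 16000 UMIs and 3.39 without cluster 8. Window peaks that were higher numbered 10 at 8000 to 16000 UMIs, and those lower 11 with bins on UMIs per 10000. At resolution 1.2 the Sox9 level was 0.462 and 0.422 in ATII-like nuclei of C and D, 0.669 and 0.556 in transitional-like and 0.357 in airway secretory-like nuclei of C; at 0.4 it was 1.39 and 1.07 in transitional-like nuclei. Log2 folds that turned were Cyp2f2 in C, 0.24 without airway secretory-like nuclei, and, at 8000 to 16000 UMIs, chr11:111781133-111782107 in D (0.0777) and chr11:112897289-112898182 in C (0.66), both with few counts. The cause was not tested. Of the other values for named genes under an alternative 392 stayed within their interval, as did 235 for named peaks, and the rest moved without turning. Depth limits bins of 55 to 73 nuclei and peaks with few counts, and 1 pooled sample gives no error between cultures.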
